A study of Mus musculus with 125 samples.

Results

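Chromatin accessibility was compared between mouse B-ALL cells (B-ALL, acute lymphoblastic leukaemia of the B lineage) that had been grown with natural killer (NK) cells and the same cells grown alone, and the peaks described here are 214 that were more accessible late in co-culture in cell lines A and B and not in cell lines C and D. The 214 peaks were chosen by their own measured values. Counts were scaled to CPM, each library's counts in consensus peaks being brought to the same total, log2(CPM + 0.5) was averaged over all libraries of a line and arm, and a peak was kept when B-ALL + NK at time point 2 (TP2) minus B-ALL alone was 0.58 or more in both A and B and below 0.2 in both C and D. The rule was applied to 110249 peaks on chromosomes 1 to 19 with a mean of 1 CPM or more, out of 256400 consensus peaks in all, so the 214 made up 0.194% of the peaks it was applied to and 13.8% of the 1550 peaks that reached 0.58 in both A and B. The reverse pattern, 0.58 or more in both C and D and below 0.2 in both A and B, was met by 3 peaks of the 446 that reached 0.58 in C and D, and 351 peaks reached 0.58 in all 4 lines. Of 1539 peaks on chromosome X with a mean of 1 CPM or more, 10 met the same thresholds as the 214 and are not described further.

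The assay was ATAC-seq, in which the Tn5 transposase cuts and tags DNA that is not covered by nucleosomes. All 4 lines were derived from bone marrow of C57BL/6JRj mice by transformation with BCR/ABLp185, an oncogenic fusion kinase, and carry DNA barcodes and green fluorescent protein (GFP). Lines A and B go back to the same parental line and lines C and D to a different one, so A/B against C/D sets 1 parental line against 1 other and partner lines are not independent. Each line had B-ALL + NK libraries at TP2 and at an earlier time point 1 (TP1), while B-ALL alone was sampled at TP1 only, so longer culture and NK cells cannot be told apart at TP2. NK cells came from mouse spleen, were expanded with interleukin-2 and were given to the leukaemia cells at 1 to 1, and the leukaemia cells were then recovered by sorting on GFP. Experiments 9.5, 9.6 and 9.7 held all 4 lines, 9.5.1 held line C and 9.6.1 held line D, with 3 libraries per line, arm and experiment except for 1 group of 2. This gave 18 libraries of A/B per arm, 24 of C/D at TP2 and at TP1, and 23 of C/D alone. By the labels TP1 and TP2 were days 6 and 16 of experiment 9.7 and days 4 and 10 of all others. For the experiments other than 9.7 the methods give a later TP2, and which holds was not settled.

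NK cells kill leukaemia cells through perforin and granzymes, and they secrete interferon-γ (IFN-γ). In target cells IFN-γ activates Janus kinases and, through them, transcription factors that bind GAS elements, and secondary factors of the IRF family bind interferon-stimulated response elements (ISRE). Accessible sites far from genes are often enhancers, which tend to differ more between cell lines than promoters do, while AP-1 and RUNX factors are common partners at lymphoid enhancers. Whether a site opens in response to a cytokine is known to depend in part on which factors already hold the site.

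The sequences of 6 of the 12 peaks with the largest mean difference in A and B are shown as examples of motif types that were more frequent among the 214 than among all peaks. Each is the 300 bases around the peak centre on the + strand of GRCm38.p6, taken from RefSeq, and capitals mark matches, on either strand, to the 16 motifs searched, with windows that touch an annotated exon left out. The first 4 hold an ISRE match (GAAANNGAA) or a GAS match (TTCNNNGAA), the fifth an AP-1 match (TGANTCA) and the sixth a RUNX match (TGTGGTT), and the Aldh1a7 promoter also holds the octamer ATGCAAAT. The windows at Cntnap5c, Plod2 and Tvp23a touch no exon either and are not shown, though Plod2 holds a RUNX and Tvp23a an AP-1 match. The 6 thus do not show how often these motifs occur.
Aldh1a7 promoter, chr19:20727568-20727867: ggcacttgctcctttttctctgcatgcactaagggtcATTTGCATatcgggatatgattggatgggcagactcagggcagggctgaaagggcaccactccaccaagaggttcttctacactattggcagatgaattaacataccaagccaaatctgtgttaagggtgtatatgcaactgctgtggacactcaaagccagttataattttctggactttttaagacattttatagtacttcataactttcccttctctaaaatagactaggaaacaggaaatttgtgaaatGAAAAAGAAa
Aldh1a7 intron, chr19:20722924-20723223: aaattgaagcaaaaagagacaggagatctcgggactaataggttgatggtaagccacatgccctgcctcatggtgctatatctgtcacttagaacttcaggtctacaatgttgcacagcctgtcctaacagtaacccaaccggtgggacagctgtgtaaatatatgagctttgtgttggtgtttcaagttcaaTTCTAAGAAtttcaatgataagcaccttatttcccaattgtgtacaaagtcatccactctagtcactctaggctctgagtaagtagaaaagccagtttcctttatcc
Fndc3a intron, chr14:72629755-72630054: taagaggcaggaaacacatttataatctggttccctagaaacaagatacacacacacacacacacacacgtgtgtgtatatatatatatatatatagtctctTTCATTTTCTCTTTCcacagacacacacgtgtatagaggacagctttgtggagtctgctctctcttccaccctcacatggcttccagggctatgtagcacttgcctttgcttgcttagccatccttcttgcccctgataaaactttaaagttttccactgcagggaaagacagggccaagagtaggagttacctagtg
2310067P03Rik intron, chr13:83100608-83100907: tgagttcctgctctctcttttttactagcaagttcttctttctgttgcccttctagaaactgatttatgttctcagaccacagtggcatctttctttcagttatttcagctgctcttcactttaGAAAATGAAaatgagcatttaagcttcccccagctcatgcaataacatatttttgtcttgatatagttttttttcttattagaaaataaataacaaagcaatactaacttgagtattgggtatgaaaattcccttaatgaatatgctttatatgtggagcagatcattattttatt
Ghr intron, chr15:3376708-3377007: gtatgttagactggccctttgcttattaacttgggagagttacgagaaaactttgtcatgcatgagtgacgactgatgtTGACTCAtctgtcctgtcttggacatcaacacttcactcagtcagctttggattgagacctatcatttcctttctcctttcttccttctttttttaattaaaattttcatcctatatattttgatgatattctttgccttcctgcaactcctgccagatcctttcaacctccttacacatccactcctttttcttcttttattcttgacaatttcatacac
peak 14.4 kb from Gm26901, chr1:7412092-7412391: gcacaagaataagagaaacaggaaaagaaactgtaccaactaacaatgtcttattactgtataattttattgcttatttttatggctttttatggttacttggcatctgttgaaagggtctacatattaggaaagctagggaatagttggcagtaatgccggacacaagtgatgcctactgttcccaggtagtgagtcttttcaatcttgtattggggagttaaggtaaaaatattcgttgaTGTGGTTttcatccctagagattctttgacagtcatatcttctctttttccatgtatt

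The values that chose the peaks were moderate in size and alike in the 6 combinations of line and experiment of A/B. The median difference of the 214 peaks at TP2 was 0.80 in A (0.58 to 1.94) and 0.71 in B (0.58 to 1.25), against 0.13 and 0.01 over all 110249 peaks. In C the median was 0.03 (−0.95 to 0.20) and in D 0.03 (−0.73 to 0.19), against 0.03 and −0.03 over all peaks. By experiment, the medians at TP2 were 1.05, 0.73 and 0.81 in A (9.5, 9.6 and 9.7) and 0.79, 0.65 and 0.83 in B. In C they were 0.13, 0.15, 0.07 and −0.25 (9.5, 9.5.1, 9.6 and 9.7), and in D 0.31, −0.17, −0.18 and 0.02 (9.5, 9.6, 9.6.1 and 9.7). Of the 214 peaks, 204 were higher at TP2 than alone in all 6 combinations of A/B. The rule averaged these same libraries, so this count is a description, and the share of all peaks was not taken. Scaled by TMM or DESeq2 size factors as well, 159 of the 214 met the rule each time, and those that did not include peaks described below at Igsf5, Nedd4l, Ndfip2, Gbp6, Gbp4, Trp63, Olfr1258, Il2ra and Sgip1. Line D was the least uniform, and in experiment 9.5 it had 49 of the 214 at 0.58 or more. Each library is a bulk sample, so a site that opened in more of the cells and one that opened further in each cell cannot be told apart. Total counts ranged from 3083547 to 13580746 per library, so that 1 CPM stood for 3.08 to 13.6 counts, and 78 of the 214 peaks had a mean under 2 CPM.

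**Figure D1:**
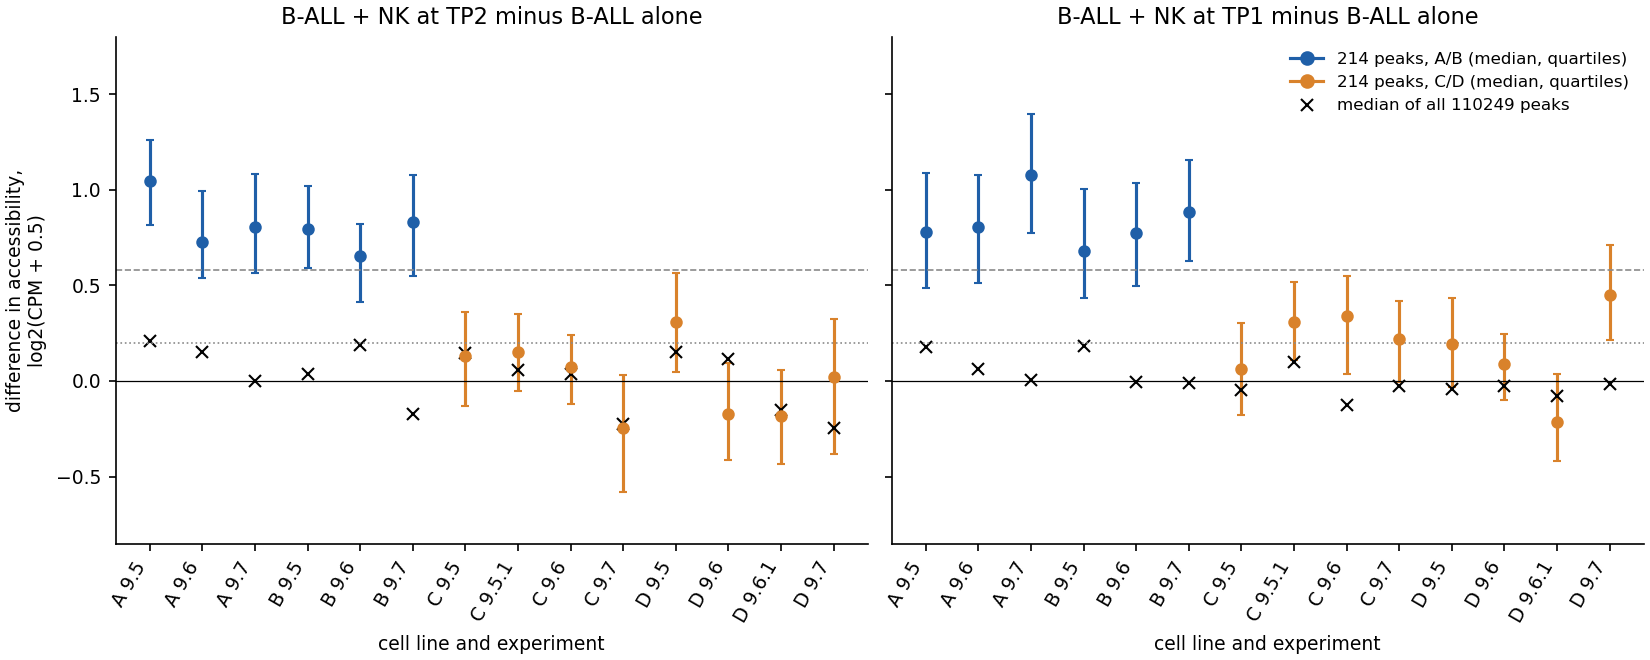
Difference in accessibility from B-ALL alone, in log2(CPM + 0.5), of the 214 peaks in each line and experiment, at TP2 on the left and at TP1 on the right. Points are medians with quartiles, crosses are the median of all 110249 peaks, and the lines at 0.58 and 0.2 are the thresholds of the rule at TP2. The A/B medians were 0.65 to 1.05 at TP2 and 0.68 to 1.08 at TP1, and the C/D medians were −0.25 to 0.31 and −0.21 to 0.45.

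Most of the differences were also present at the earlier time point. At TP1, 165 of the 214 peaks had a mean difference of 0.58 or more in A/B, against 4.29% of all peaks, and the median was 0.83, against 0.79 at TP2. Both comparisons share the libraries of B-ALL alone, so these values are a description. The TP2 minus TP1 difference in A/B had a median of −0.04 (−0.84 to 0.79), with 47 peaks higher and 60 lower at TP2 by 0.2 or more. The median at TP1 was 0.78, 0.81 and 1.08 in A and 0.68, 0.78 and 0.89 in B. In C/D the median at TP1 was 0.19, against −0.04 over all peaks, with 4 peaks at 0.58 or more and 113 below 0.2. The C/D combinations at TP1 ran from a median of −0.21 in D of 9.6.1 to 0.45 in D of 9.7, where 80 of the 214 were at 0.58 or more. The name "late" thus did not describe most of the peaks.

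**Figure D2:**
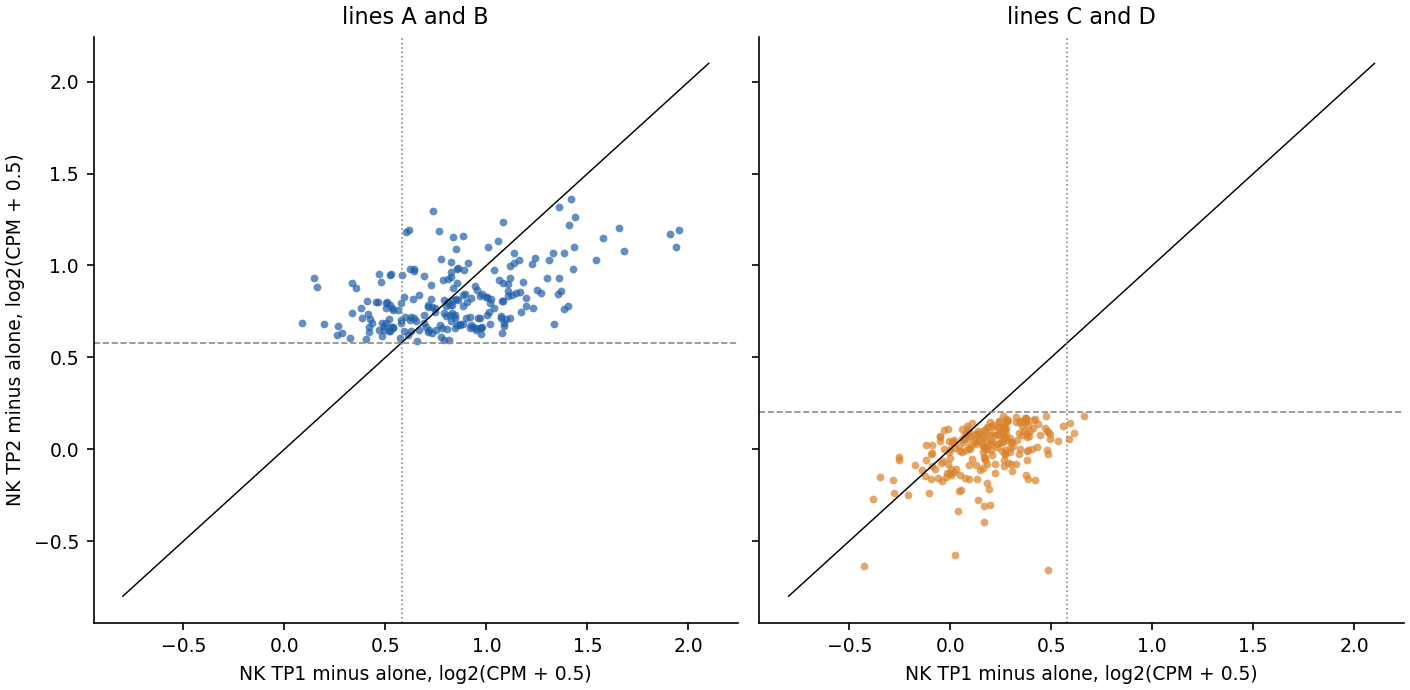
Mean difference from B-ALL alone at TP2 (vertical) against TP1 (horizontal), log2(CPM + 0.5), for the 214 peaks in lines A and B on the left and lines C and D on the right. Dashed lines are the limits the rule set at TP2, dotted lines mark 0.58 at TP1, and the diagonal is equal difference. In A and B, 165 of the 214 points lie at or right of 0.58 at TP1, and in C and D 4 do.

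Since the rule used every library, the pattern was tested in experiments held out of the choice. The same rule was applied without 1 experiment family at a time (9.5 with 9.5.1, 9.6 with 9.6.1, or 9.7), and the peaks so chosen were tested in the libraries of the experiment left out by edgeR's quasi-likelihood test, adjusted by Benjamini-Hochberg over all peaks tested and called at an adjusted p of 0.05 or less with a log2 fold change of 0.58 or more. The choices held 314, 170 and 307 peaks, of which 110, 80 and 69 were among the 214, so membership depended on which experiments were used. In all 3 choices 17 peaks were chosen, 76 of the 214 were chosen in 2 or more and 48 in none.

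The gain in A/B was seen again in the held-out libraries. In experiment 9.5, 205 of 312 tested peaks were called higher at TP2 than alone in A/B (65.7%, against 4.07% of all peaks), with a median log2 fold change of 0.93 against 0.05. In experiment 9.6 the count was 45 of 170 (26.5%, against 2.66%), with a median of 0.45 against 0.12. In experiment 9.7 it was 84 of 307 (27.4%, against 3.26%), with a median of 0.16 against −0.08. All 3 shares were thus above the background, and the share in 9.5 was above the other 2. Leaving out replicate 1, 2 or 3 gave 165, 150 and 153 calls in 9.5, 10, 18 and 15 in 9.6, and 79, 30 and 74 in 9.7.

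The absence of a gain in C/D was not seen again in every experiment, and in 9.5 the chosen peaks gained in C/D more often than all peaks did. In C/D, 77 of the peaks (24.7%, against 11.2% of all peaks) were called higher at TP2 in experiment 9.5 and 35 (11.4%, against 12.2%) in 9.7. In 9.6 edgeR and DESeq2 each called 0 of 170 higher (against 1.8% by edgeR), and 2 peaks passed an unadjusted p of 0.05 and the fold threshold. The difference itself, the TP2 effect in A/B minus that in C/D, was called in favour of A/B for 33 peaks in 9.5 (10.6%, against 0.482%), 4 in 9.6 (2.35%, against 0.0315%) and 28 in 9.7 (9.12%, against 1.26%). Its median was 0.54, 0.66 and 0.43. In C/D the medians of the same peaks were 0.39, −0.26 and −0.26, against 0.095, 0.039 and −0.173 over all peaks. In 9.7 46 peaks were called lower in C/D against 35 higher. The 46 were 14.98% of the chosen peaks, near the 14.86% of all peaks called lower. Called lower in C/D were also 13 in 9.5 (4.17%, against 5.81%) and 10 in 9.6 (5.88%, against 2.16%). In each experiment the share called in favour of A/B was above that of all peaks. With a replicate block the count in 9.5 was 44, against 0.754% of all peaks. Leaving out replicate 1, 2 or 3 gave 9, 19 and 19 such calls in 9.5, against 0.0479%, 0.135% and 0.179% of all peaks. In 9.6 it gave 1, 1 and 2, against 0.000626%, 0.0319% and 0.00451% of all peaks. In 9.7 it gave 14, 15 and 27, against 0.203%, 0.765% and 0.937% of all peaks.

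A gain at TP1 was also called in the held-out libraries. In A/B at TP1, 179 peaks (57.4%, against 6.27%) were called higher than alone in 9.5, 65 (38.2%, against 2.45%) in 9.6 and 97 (31.6%, against 4.77%) in 9.7. Between the 2 co-culture arms of A/B, 9, 2 and 5 peaks were called higher at TP2 than at TP1 in 9.5, 9.6 and 9.7, against 0.186%, 2.38% and 0.726% of all peaks. Lower at TP2 than at TP1 were 1, 32 and 9 peaks, against 0.169%, 3.4% and 1.27% of all peaks. The 32 calls of 9.6 became 14, 70 and 0 without replicate 1, 2 or 3, against 1.90%, 8.54% and 0.101% of all peaks. The 65 TP1 calls of 9.6 became 39, 77 and 23, against 1.24%, 2.45% and 0.78% of all peaks. The 16 calls of a higher level at TP2 than at TP1 included the Tenm4 start site (0.64, edgeR adjusted p = 9.341e-06) and Ndst3 (0.78, adjusted p = 1.399e-05) in 9.5, and a Sgip1 intron peak outside the 214 (0.97) in 9.7. The 2 calls of 9.6, at the Aldh1a7 promoter and the Tenm4 exon, became 0 by DESeq2, 1 with a replicate block and 0, 0 and 1 without replicate 1, 2 or 3.

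**Figure D3:**
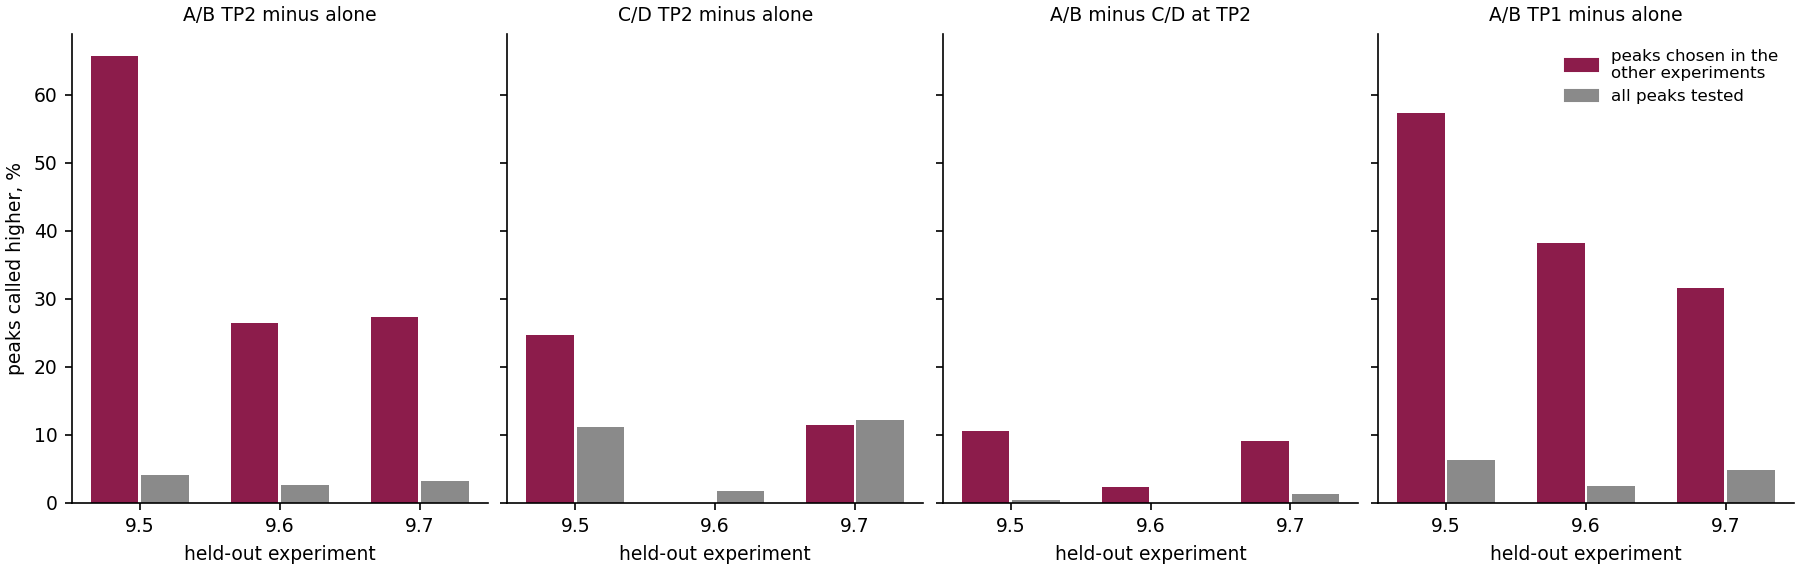
Percent of peaks called higher by edgeR in each held-out experiment, for peaks chosen in the other experiments beside all peaks tested, in 4 comparisons. In A/B at TP2 the chosen peaks reached 65.7%, 26.5% and 27.4%, against 4.07%, 2.66% and 3.26% of all peaks.

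Counting a peak that passed both the A/B test and the A/B minus C/D test in a held-out experiment, 48 peaks did so at least once, 38 of them among the 214, and 8 did so in 2 experiments, all 8 among the 214. The held-out libraries also entered the rule for the 214, so this overlap was partly built in. The share of all peaks passing both tests was not counted. The 8 were singled out after their values were seen. Besides peaks of Tenm4, Cd86 and H2-Aa they included 1 in an intron of Ndst3, which encodes a heparan sulfate-modifying enzyme (chr3:123652337-123654386), and peaks outside genes 31.4 kb from Ttpa (chr4:19975831-19977203), 111.2 kb from Hapln1 (chr13:89427755-89429356) and 855.0 kb from Vrk2 (chr11:27448683-27449282). At the Ndst3 peak the median was 16.8 CPM at TP2 and 8.36 CPM alone in A/B, and 15.9 and 17.4 CPM in C/D. In 9.5 its A/B log2 fold change was 1.15 ± 0.14 (SE, edgeR adjusted p = 1.786e-11) and that of A/B minus C/D was 1.33 ± 0.18 (adjusted p = 3.477e-07).

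The peak at the start site of Tenm4, which encodes a large transmembrane protein of the teneurin family known from neural development, was the most accessible of the 214 at TP2 in A/B (chr7:96209849-96213731). Its lowest, median and highest values in A/B were 27.4, 41.2 and 67.0 CPM at TP2, 19.3, 27.9 and 40.5 CPM at TP1, and 7.70, 17.6 and 27.5 CPM alone. In C/D they were 4.16, 8.87 and 18.8 CPM at TP2, 4.57, 9.95 and 14.7 CPM at TP1, and 4.49, 10.0 and 17.6 CPM alone. The TP2 libraries of A/B thus lay almost wholly above those alone, while all 3 arms overlapped in C/D. The difference at TP2 was 1.66 in A, 0.93 in B, −0.03 in C and −0.18 in D. In the held-out fit of 9.5 the A/B log2 fold change was 1.25 ± 0.11 (SE, edgeR adjusted p = 2.01e-18), and A/B minus C/D was 1.19 ± 0.18 (adjusted p = 2.922e-06). In that of 9.6 they were 1.03 ± 0.14 (edgeR adjusted p = 2.755e-07) and 1.02 ± 0.20 (adjusted p = 0.01003). The peak was not chosen when 9.7 was left out. A peak over an exon further into the gene (chr7:96729817-96730914) had 1.97, 3.58 and 5.62 CPM at TP2 in A/B and 0.335, 1.24 and 1.93 CPM alone, with no overlap between these arms. Such a lack of overlap was found at 2 of the 214, in libraries that the rule used, and its share of all peaks was not counted. Another peak of the gene, in an intron (chr7:96302310-96303439), was among the 17 peaks chosen in all 3 choices.

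**Figure D4:**
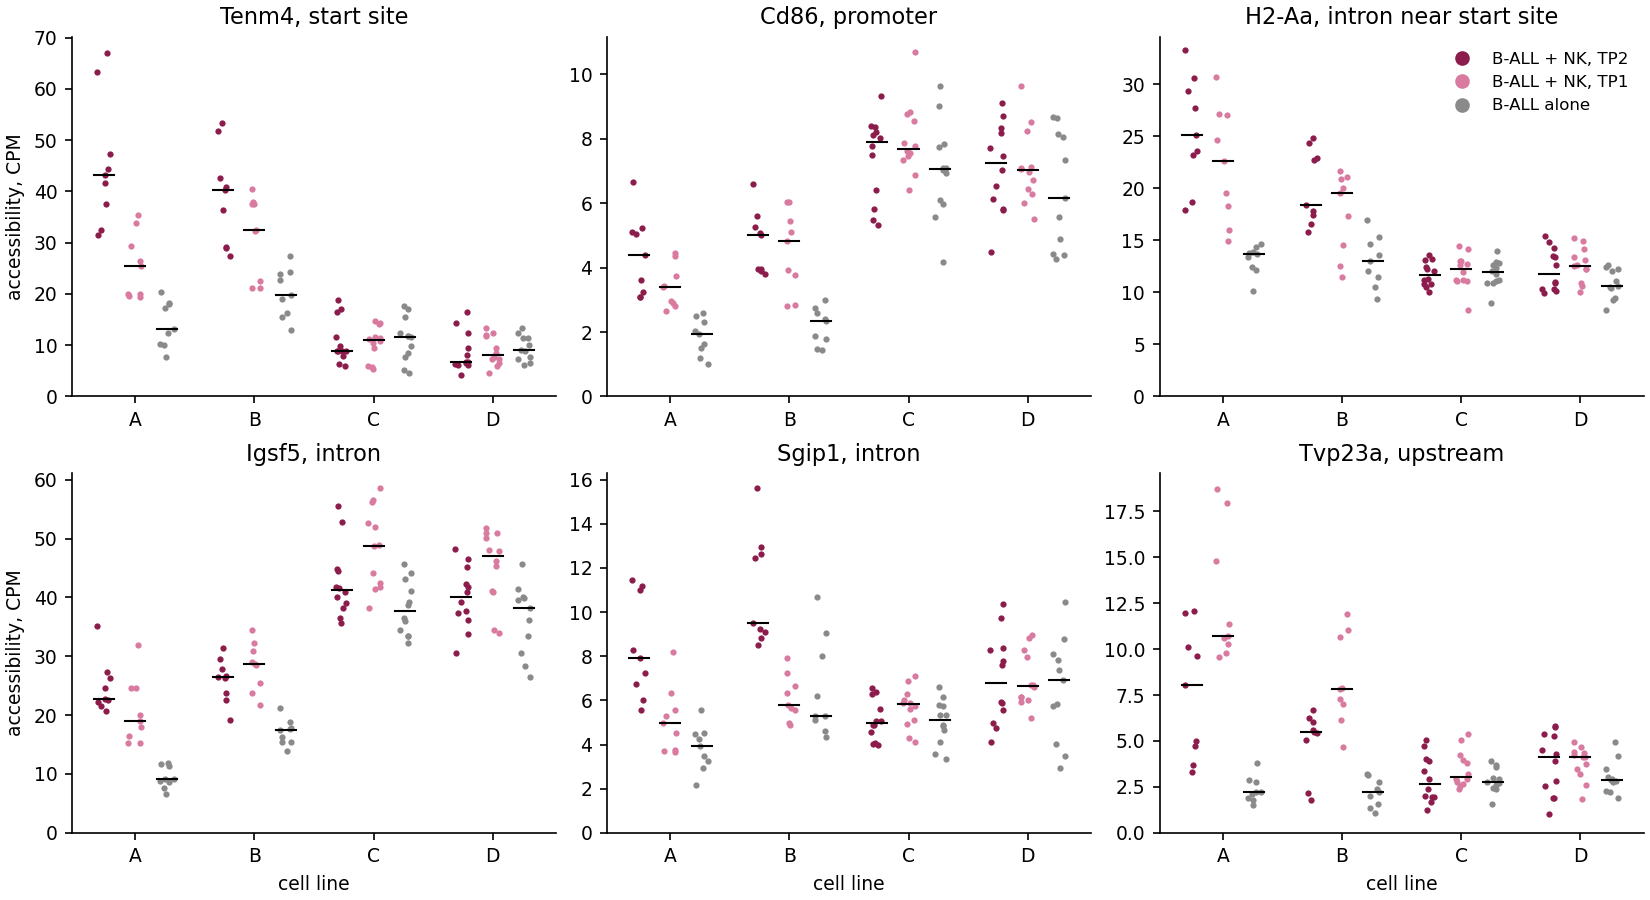
Accessibility in CPM of 6 of the 214 peaks in every library, by cell line, with the co-cultures at TP2, then those at TP1, then B-ALL alone from left to right in each line and the median as a bar. At the Tenm4 start site the medians in A/B were 41.2 CPM at TP2 and 17.6 CPM alone, at Cd86 and Igsf5 the A/B values at TP2 stayed below most of C/D, and at Tvp23a TP1 was above TP2.

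Peaks of the Aldh1a7 gene, which encodes a cytosolic aldehyde dehydrogenase, were open in A/B and almost closed in C/D. The promoter peak (chr19:20726914-20728523) had 2.23, 5.24 and 9.79 CPM (lowest, median, highest) at TP2 and 0.582, 2.02 and 3.21 CPM alone in A/B. In C/D it had 0, 0.489 and 1.29 CPM at TP2 and 0, 0.632 and 1.60 CPM alone. The intron peak (chr19:20722500-20723649) had 1.68, 3.18 and 7.07 CPM at TP2 and 0.194, 1.28 and 2.26 CPM alone in A/B, and medians of 0.334 and 0.380 CPM in C/D. Their medians at TP1 in A/B were 3.34 and 2.49 CPM, between those of the other arms. The difference at TP2 was larger in A than in B at both, 1.64 and 0.74 at the promoter and 1.69 and 0.68 in the intron.

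The 2 peaks with the largest mean difference lay in introns of Cntnap5c, a contactin-associated protein of the neurexin superfamily, and Ghr, the growth hormone receptor, which signals through JAK2 and STAT5. The Cntnap5c peak (chr17:58102195-58103818) had 0.558, 2.62 and 6.69 CPM at TP2 and 0.112, 0.452 and 1.31 CPM alone in A/B, against medians of 0.571 and 0.655 CPM in C/D. Its difference was 1.94 in A and 0.78 in B, and ranged from 0.34 to 2.32 over the 6 combinations. The Ghr peak (chr15:3375766-3377950), whose nearest coding start is that of Ccdc152, had 1.98, 4.44 and 11.5 CPM at TP2 and 0.715, 1.59 and 2.89 CPM alone in A/B, against 0.175, 1.28 and 4.75 CPM and 0.608, 1.77 and 4.53 CPM in C/D. It was the more even of the pair, with 1.42 in A and 1.22 in B. At TP1 the Ghr peak was at 1.36 in A/B and 0.42 in C/D.

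Etv1, an ETS-family transcription factor, had a peak 2.88 kb from its start (chr12:38821564-38823289) with 2.06, 3.79 and 6.01 CPM at TP2 and 0.358, 1.33 and 3.37 CPM alone in A/B. In C/D the same peak had medians of 2.16 CPM at TP2 and 1.92 CPM alone. The peak in an intron of Fndc3a, a fibronectin-domain protein (chr14:72629345-72630465), had 0.718, 1.91 and 3.72 CPM at TP2, 1.32, 2.95 and 4.76 CPM at TP1 and 0.177, 0.504 and 1.69 CPM alone in A/B. Here TP1 was above TP2, and C/D also moved at TP1, with a difference of 0.61 at TP1 and 0.09 at TP2. The peak near Gm26901, a non-coding transcript (chr1:7411123-7413362), was nearly as high in B as in A, at 1.24 and 1.2, and had 2.18, 3.77 and 7.94 CPM at TP2 and 0.452, 1.29 and 3.13 CPM alone. It was chosen in all 3 choices and called in A/B in each held-out experiment, with log2 fold changes of 1.72 ± 0.27, 1.13 ± 0.24 and 1.47 ± 0.28 (SE, edgeR adjusted p = 5.125e-07, 0.001484 and 0.0002019), and in A/B minus C/D in 9.7 only (2.21 ± 0.49, adjusted p = 0.002688, against adjusted p = 0.09707 in 9.5 and 0.3827 in 9.6).

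In all, 7 peaks were chosen in all 3 choices and called in A/B in all 3 held-out experiments, the peak near Gm26901 among them. Each experiment entered the choices made without the others, so for these 7 the calls were partly built in. The share of all peaks called in all 3 was not counted. The other 6 were the peak 8.52 kb from H2-Aa, the Tenm4 intron peak above, and peaks nearest to Ptpn14, Dmac1, Ido1 and Gm49451.

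Among the 6 peaks with the highest A/B median at TP2 were also 1 on the Nfe2l3 side (chr6:51058998-51061311), with medians of 24.5 CPM at TP2 and 11.8 CPM alone in A/B and 20.4 and 19.7 CPM in C/D, and 1 nearest to Olfr1258, an olfactory receptor gene (chr2:89920116-89922592), with 22.03 and 14.3 CPM in A/B and 8.11 and 9.67 CPM in C/D.

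Genes of the immune lists were nearest to few of the peaks. These counts can be read against the 0.194% of all peaks that met the rule and the 1550 of 110249 that reached 0.58 in both A and B. Of 60 peaks nearest to MHC class II genes 2 were among the 214, and of 143 peaks nearest to checkpoint and costimulatory ligands 2. Cd86 encodes a ligand of CD28 and CTLA-4 that costimulates T cells, and its promoter peak (chr16:36665215-36667269) had 3.08, 4.69 and 6.67 CPM at TP2, 2.65, 3.76 and 6.05 CPM at TP1 and 1.01, 1.99 and 3.0 CPM alone in A/B. In C/D it had 4.50, 7.60 and 9.34 CPM at TP2 and 4.19, 7.02 and 9.63 CPM alone. The A/B libraries at TP2 did not overlap those alone, which was so at 2 of the 214 peaks. The rule used these libraries, and the share of all peaks was not counted. The A/B median at TP2 was still below that of C/D alone. In the held-out fits the A/B log2 fold change at Cd86 was 1.12 ± 0.21 in 9.5 (SE, edgeR adjusted p = 3.079e-05) and 1.53 ± 0.20 in 9.7 (adjusted p = 2.901e-07), and A/B minus C/D was 1.18 ± 0.26 (adjusted p = 0.006817) and 0.98 ± 0.26 (adjusted p = 0.01471).

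H2-Aa encodes the α chain of the MHC class II molecule I-A, which presents peptides to CD4+ T cells. The peak in its intron (chr17:34285648-34288379), 764 bp from the start, had 15.8, 23.1 and 33.3 CPM at TP2, 11.5, 19.8 and 30.7 CPM at TP1 and 9.39, 13.5 and 16.9 CPM alone in A/B. In C/D it had 9.99, 11.6 and 15.4 CPM at TP2 and 8.28, 11.2 and 13.9 CPM alone. The pairs of lines were thus close when grown alone, and the rule, which used these libraries, then required them to be apart at TP2. The second peak, 8.52 kb from the start (chr17:34295882-34296804), had medians of 7.78 CPM at TP2 and 3.88 CPM alone in A/B, and 4.46 and 4.79 CPM in C/D. It was called in A/B in 9.5 (1.04 ± 0.17, edgeR adjusted p = 1.47e-06), 9.6 (0.70 ± 0.17, adjusted p = 0.007338) and 9.7 (1.13 ± 0.19, adjusted p = 2.642e-05), and in A/B minus C/D in 9.5 and 9.7 (adjusted p = 0.0002783 and 0.007388) but not in 9.6 (0.92 ± 0.25, adjusted p = 0.1563).

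The peak 9.25 kb from Ido1, an interferon-inducible enzyme that degrades tryptophan, lay in an intron of the neighbouring gene Adam18 (chr8:24605273-24607250). It had 2.72, 5.12 and 6.79 CPM at TP2 and 1.64, 2.60 and 6.03 CPM alone in A/B, and medians of 1.93 and 2.45 CPM in C/D, with 1 or more A/B libraries alone reaching into the TP2 range. Its A/B log2 fold change was 0.93 ± 0.21, 0.71 ± 0.19 and 0.60 ± 0.17 in the 3 held-out fits (SE, edgeR adjusted p = 0.0004399, 0.01138 and 0.01706), and A/B minus C/D was called in 9.7 only (1.13 ± 0.28, adjusted p = 0.007387, against adjusted p = 0.05023 and 0.2699).

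Of 111 peaks nearest to IFN-γ-induced GTPases, which attack intracellular vacuoles, 41 reached 0.58 in both A and B and 2 were among the 214. The peak 61.0 kb from Gbp6 (chr5:105352420-105356953) had medians of 17.99 CPM at TP2, 21.8 CPM at TP1 and 10.8 CPM alone in A/B, and 18.4, 20.2 and 17.0 CPM in C/D, so the TP2 level was alike in the pairs of lines and A/B started lower. The peak 14.1 kb from Gbp4 (chr5:105153065-105154258) had medians of 1.86 and 1.16 CPM at TP2 and alone in A/B, and 1.78 and 1.5 CPM in C/D. Its TP2 difference was 0.60 in A and 0.66 in B, near the threshold. The antiviral interferon-stimulated genes had 0 of 252 peaks among the 214, with 9 that reached 0.58 in both A and B whatever C/D did. Interferon signalling genes had 0 of 290, with 10 such peaks, and MHC class I genes 0 of 92, with 0 such peaks, by the thresholds of the rule and with no test. Counts of 0 among the 214 in lists of these sizes are near the 0.194% of all peaks that met the rule.

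Of the other lists, regulators of apoptosis had 1 peak of 223, in an intron of Bcl2, the inhibitor of mitochondrial apoptosis (chr1:106618422-106620679). It had medians of 4.49 CPM at TP2, 5.60 CPM at TP1 and 2.22 CPM alone in A/B, and 4.16, 3.37 and 3.28 CPM in C/D. Cytokine receptors had 1 peak of 362, in an intron of Il2ra, the α chain of the interleukin-2 receptor (chr2:11645417-11646282), with medians of 2.56 and 1.66 CPM at TP2 and alone in A/B and 1.87 and 2.07 CPM in C/D. Factors of progenitors and other lineages had 4 of 625, namely 3 nearest to Klf6, a zinc-finger transcription factor, 121.7 to 603.0 kb from its start, and 1 nearest to Cd34, a surface protein of haematopoietic progenitors. The peak on the Cd34 side lay 1.13 kb from the non-coding gene Gm32250 (chr1:194992595-194995833) and had 9.36, 19.5 and 25.6 CPM at TP2 and 3.24, 8.18 and 12.02 CPM alone in A/B, against 10.6, 14.3 and 20.5 CPM and 8.82, 13.2 and 20.6 CPM in C/D. No peak nearest to a gene of the lists for activating NK ligands (77 peaks), the TNF and NF-κB pathway (246), B cell identity (541), STAT5 output (454), NK cells (110), T cells (83), myeloid cells (75) or housekeeping promoters (82) was among the 214. These counts had no test. As 0.194% of all peaks met the rule, counts of 0 in lists of these sizes are near that share. Nearest genes are distances along the chromosome, and whether a peak acts on its nearest gene was not measured.

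The level in B-ALL alone, sampled at TP1, was also compared between the pairs of lines. Among the 214, 153 (71.5%) were lower alone in A/B than in C/D, against 66.9% of all peaks, and the median difference was −0.28 against −0.11 on the log2(CPM + 0.5) scale. At 17 of the 214 peaks A/B alone was at least 2-fold lower than C/D alone, a pattern of 1.752% of all peaks. At all 17 the A/B level at TP2 remained below that of C/D alone. This followed largely from the sizes, since a log2 gain of 1 or more was needed and the median A/B gain of the 214 was 0.79. At 9 peaks A/B alone was at least 2-fold higher than C/D alone, a pattern of 0.528% of all peaks. Over the 214, the A/B level at TP2 was above that of C/D alone at 186 and below it at 28. These values use the libraries of B-ALL alone that entered the rule and are a description.

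Igsf5, an adhesion protein of the immunoglobulin superfamily, had 2 peaks that were lower in A/B than in C/D. Its larger peak (chr16:96369964-96373592) had 19.3, 25.4 and 35.2 CPM at TP2 and 6.63, 12.8 and 21.2 CPM alone in A/B, against 30.6, 41.0 and 55.5 CPM at TP2 and 26.5, 38.2 and 45.7 CPM alone in C/D. Its difference in B was 0.59, near the threshold, and it did not meet the rule under every scaling. The second (chr16:96387380-96388897) had medians of 3.59 and 1.96 CPM in A/B and 7.96 and 7.15 CPM in C/D. Peaks nearest to Nkain3, Nedd4l, Ndfip2 and Pik3r1 shared this order. Pik3r1 encodes the regulatory subunit of PI3 kinase, and the peak 98.8 kb away (chr13:101866450-101867548) had medians of 2.43 CPM at TP2 and 1.03 CPM alone in A/B, and 3.70 and 4.00 CPM in C/D. Ndfip2 encodes an adaptor of NEDD4-family ubiquitin ligases and Nedd4l encodes such a ligase, and their medians alone were 6.93 and 5.94 CPM in A/B and 20.03 and 18.004 CPM in C/D.

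The opposite order was seen at sites nearly closed in C/D. The peak in an intron of Slc9a9, an endosomal sodium/proton exchanger (chr9:94951914-94953042), had 5.15, 7.46 and 12.9 CPM at TP2, 7.41, 10.0 and 16.4 CPM at TP1 and 1.97, 3.51 and 6.26 CPM alone in A/B. In C/D it had 0, 0.662 and 1.56 CPM at TP2 and 0, 0.628 and 1.87 CPM alone. The peak nearest to Trp63, a member of the p53 family (chr16:25553605-25554714), had medians of 4.09 and 2.55 CPM in A/B and 0.450 and 0.610 CPM in C/D. Those nearest to Triqk and Pgpep1l had medians of 4.25 and 7.85 CPM at TP2 and 2.39 and 4.72 CPM alone in A/B, and stayed between 0.622 and 2.24 CPM in C/D.

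Some of the peaks near Sgip1 had a late course. Sgip1, an adaptor of endocytosis, held 6 of the 214 among 13 peaks within chr4:102753294-102945179, and their median difference at TP1 in A/B was 0.27. They were not alike, since the peak on chr4:102804528-102807183 was already at 0.64 at TP1, against 0.82 at TP2, and that on chr4:102801389-102802349 at 0.49, against 0.67. At the highest of them (chr4:102851919-102854019) the values were 5.58, 9.16 and 15.6 CPM at TP2, 3.64, 5.57 and 8.18 CPM at TP1 and 2.15, 4.55 and 10.7 CPM alone in A/B, and the medians were 5.60, 6.07 and 5.74 CPM in C/D. The other 7 peaks of the stretch had medians at TP2 of 0.81 in A, 0.55 in B, −0.09 in C and −0.08 in D, and 1 of them reached 0.58 in both A and B.

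An early course with a lower later level was most marked at Tvp23a, Slc8a1 and 2310067P03Rik. Tvp23a encodes a protein of Golgi vesicles, and the peak 4.67 kb away (chr16:10450899-10453170) had 1.78, 5.56 and 12.1 CPM at TP2, 4.7, 10.5 and 18.7 CPM at TP1 and 1.09, 2.21 and 3.78 CPM alone in A/B, against medians of 3.14, 3.78 and 2.81 CPM in C/D. Slc8a1 encodes a sodium/calcium exchanger, and a peak in its intron (chr17:81579877-81581627) had medians of 4.65, 7.15 and 1.47 CPM at TP2, at TP1 and alone in A/B and 1.47, 1.28 and 1.34 CPM in C/D. The peak in an intron of the non-coding gene 2310067P03Rik, 403.3 kb from Mef2c (chr13:83099990-83101527), had medians of 2.28, 3.71 and 0.616 CPM in A/B and 0.930, 1.28 and 0.948 CPM in C/D. Mef2c is a transcription factor of lymphoid and muscle cells, and no measurement here ties the peak to it. At these peaks the differences in A/B were 1.95, 1.94 and 1.91 at TP1 and 1.19, 1.10 and 1.17 at TP2.

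The peaks were unevenly spread over the genome. Chromosome 16 held 26 of the 214, 0.646% of its 4022 peaks, and the next highest share was 0.313% on chromosome 4. The median TP2 difference of all peaks of chromosome 16 was 0.15 in A and 0.02 in B, against 0.13 and 0.01 genome-wide. Runs of 3 or more of the 214 within 200 kb of one another were found in 4 places. On chromosome 16, 8 of 27 peaks of chr16:9005692-9364374, a stretch with the non-coding genes Gm30567, Gm49448 and Gm49451, were among the 214, and 13 of the other 19 also reached 0.58 in both A and B. These 19 had medians of 0.21 in C and 0.27 in D, so that the stretch as a whole was not closed to change in C/D. The Cd86 promoter and 2 peaks on the Ildr1 side formed a run of 3 of 5 peaks (chr16:36665215-36685168), and the remaining 2 also reached 0.58 in both A and B.

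On chromosome 9, 6 of 37 peaks of chr9:92206892-92622622 were among the 214, at the phospholipid scramblase genes Plscr5 and Plscr2, the gene 1700057G04Rik and Plod2, which encodes a lysyl hydroxylase of collagen. Their median difference at TP1 in A/B was 1.04. The peak at the Plscr2 start (chr9:92289203-92290098) had 0.294, 2.76 and 6.21 CPM at TP2 and 0, 1.14 and 2.48 CPM alone in A/B, and medians of 1.04 and 1.05 CPM in C/D. The peak 30.2 kb from Plod2 (chr9:92511706-92512323) had 1.18, 2.69 and 3.97 CPM at TP2, 1.79, 3.01 and 3.87 CPM at TP1 and 0, 0.726 and 1.93 CPM alone in A/B, and medians of 0.410, 0.587 and 0.401 CPM in C/D. Of the other 31 peaks of the stretch 4 reached 0.58 in both A and B, with medians of 0.74 in A and 0.24 in B.

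**Figure D5:**
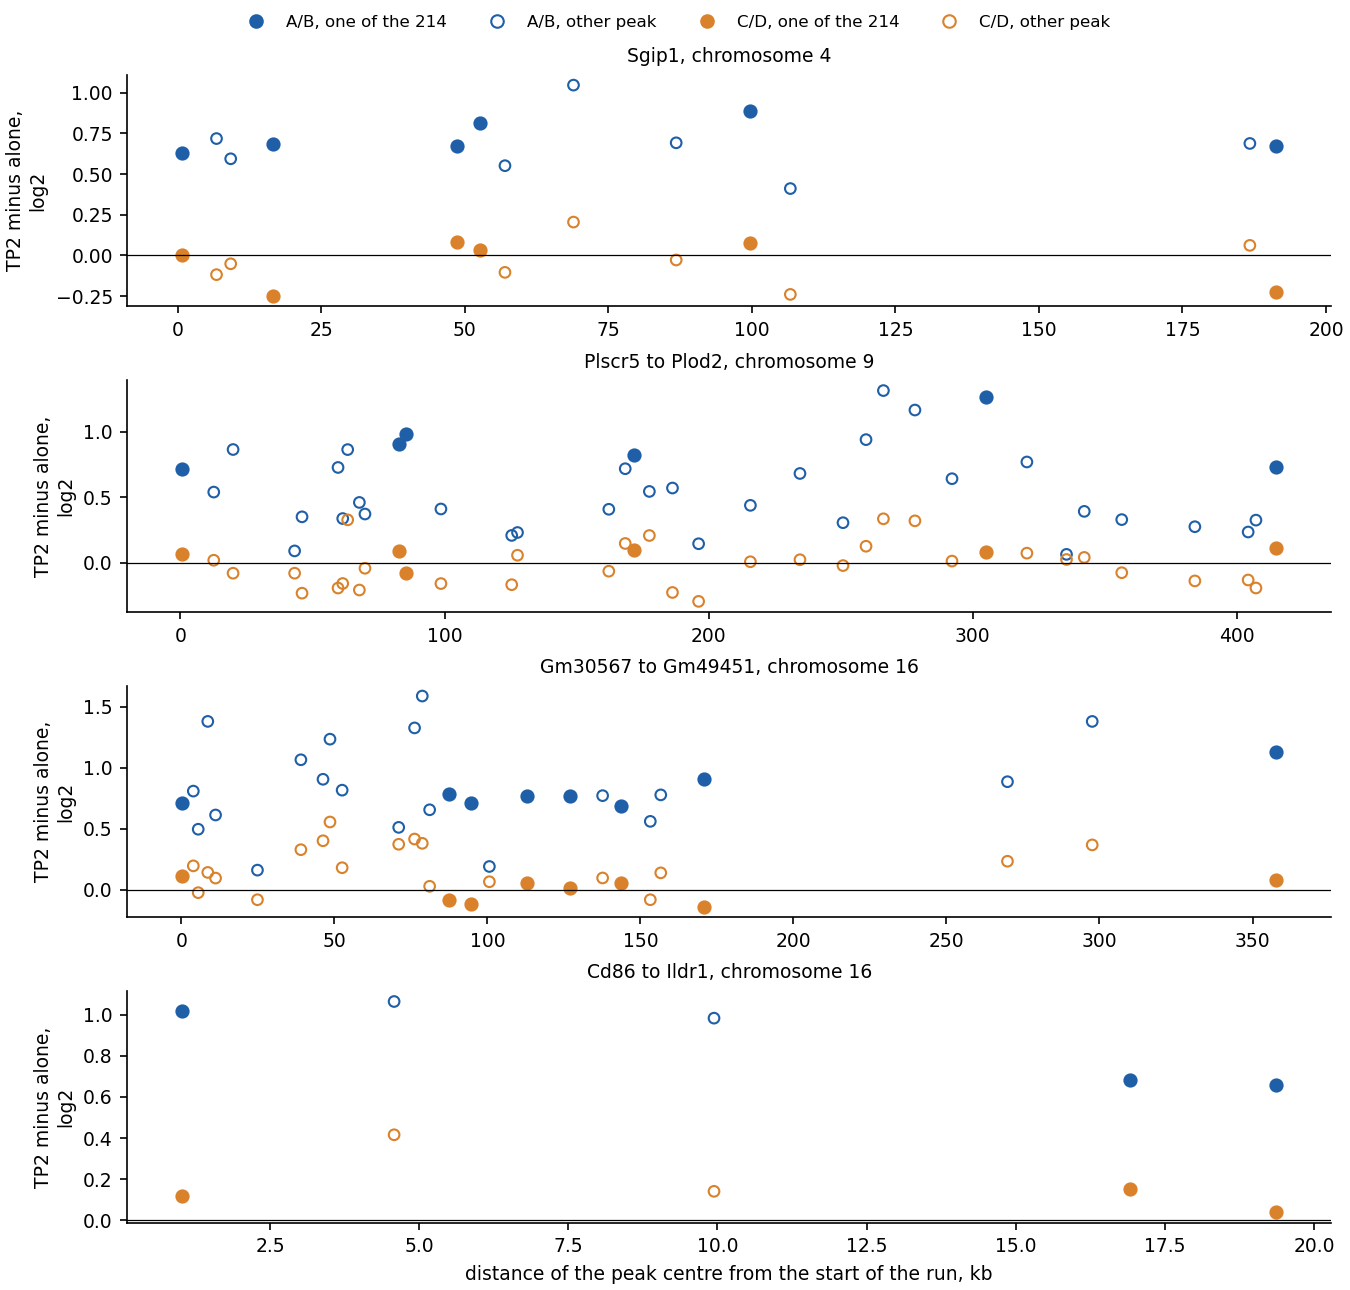
Difference at TP2 from B-ALL alone, log2(CPM + 0.5), of every peak in the 4 runs, against the distance in kb from the start of the run, with the mean of A and B and the mean of C and D in different colours. Filled points are among the 214 and open points are other peaks with a mean of 1 CPM or more. In the run of chromosome 16 at Gm30567, 13 of the 19 open A/B points come from peaks that reached 0.58 in both A and B.

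The 214 peaks lay farther from start sites than all peaks did, a feature that the rule did not use. By the GENCODE M21 annotation 108 (50.5%) had their centre between genes, against 35.6% of all peaks, 89 (41.6%) in introns, against 50.1%, and 17 (7.94%) in exons, against 14.3%. The centre lay within 3 kb of a start site at 31 peaks (14.5%, against 30.7% of all peaks and 22.5% of the 351 peaks that gained in all 4 lines). It lay over 50 kb from any coding start site at 96 (44.9%, against 16.7%), and the median distance was 40919 bp, against 10734 bp over all peaks and 12110 bp for the 351. Their widths (median 1453.5 bp, 200 to 4534) and mean levels (median 2.59 CPM, 1.01 to 32.9) were near those of all peaks (1290 bp and 2.92 CPM). The 300 bases around the centre had a median GC content of 41.3%, against 50.3% over all peaks and 45.7% for the 351.

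Motif matches were searched in those 300 bases. An ISRE match was found in 23.4% of the 214, against 8.93% of all peaks and 32.2% of the 351 shared gains. A GAS match was found in 19.6%, against 8.35% and 13.1%, and 80 of the 214 (37.4%, against 16.4% of all peaks and 39.9% of the 351) held either. AP-1 matches were found in 15.9%, against 9.09% and 10.3%, and RUNX matches in 15.4%, against 8.0% and 11.1%. Among other motifs, some were less frequent than among all peaks, namely the E2A E-box CAGGTG (18.7%, against 25.3%), the PU.1 motif GAGGAAG (9.81%, against 14.7%), the KLF/SP motif GGGCGGG (1.40%, against 7.25%) and the ETS motif CCGGAAG (0.467%, against 2.76%). Since the short motifs depend on base composition, the shares were also taken among peaks with a GC content of 38.0 to 45.3%, the quartiles of the 214. There the shares were 24.1% of 112 peaks against 13.5% of 22890 for ISRE, 17.9% against 11.5% for GAS, 18.8% against 11.2% for AP-1 and 18.8% against 11.7% for RUNX. In the same band the E2A E-box was at 15.2% against 18.3%, the PU.1 motif at 8.93% against 12.4%, the KLF/SP motif at 0% against 0.931% and the ETS motif at 0% against 0.904%. Over all GC contents the octamer was found in 2.80% of the 214 (6 peaks), against 1.37%, and the FOXO motif TGTTTAC in 5.14%, against 3.38%. In the band they were found in 3.57% against 2.19% and 4.46% against 5.28%. In 200 bases around the centre the octamer was the rarer among the 214, at 0.467% against 0.924% of all peaks. A match is a run of letters and does not show that a factor was bound.

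The peak lists that the authors called in each library gave a second view of the same reads. In A/B the share of the 214 that overlapped a broad peak of a library had a median of 48.8% at TP2 (29.4 to 81.8%), 58.9% at TP1 and 23.4% alone (13.6 to 34.6%), against 35.3%, 39.5% and 34.02% of all peaks. In C/D it was 33.6%, 43.0% and 31.8%, against 40.6%, 43.8% and 39.6%. These shares come from the reads and arms that the rule used and are a description.

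The thresholds cut through a continuum. The 3 peaks just inside the limit of 0.58, nearest to Hif1a, Tram1 and Smchd1, had a lower A or B difference of 0.58, and the 3 just outside, nearest to Plch1, Lnx2 and 1110059E24Rik, also of 0.58 after rounding. Just inside the limit of 0.2 in C/D lay peaks nearest to Setbp1, Tenm4 and Zc3h12c, and just outside it those nearest to Spag17, Cd300lf and Pcsk1, all 6 within 0.20 after rounding. Just inside the limit on level lay peaks nearest to Rnf11, Orm1 and Skor1, at 1.01, 1.01 and 1.02 CPM, and just outside it 3 peaks at 0.985, 0.959 and 0.944 CPM.

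Promoter peaks of cell-type markers were checked as the sum of their CPM in each library. The B-ALL markers had 6 of 8 promoters with a peak, with sums of 266 to 549 CPM at TP2, 265 to 440 CPM at TP1 and 309 to 616 CPM alone in A/B. The NK markers had 4 of 7, with no peak at the promoters of Ncr1, Klrk1 and Ifng, and sums of 19.97 to 36.2 CPM at TP2, 22.1 to 36.4 CPM at TP1 and 21.96 to 36.5 CPM alone in A/B, and of 18.6 to 36.5, 19.96 to 36.7 and 19.4 to 35.7 CPM in C/D. The T cell sums were 46.5 to 96.6 CPM at TP2 and 57.3 to 105 CPM alone in A/B, and the myeloid sums 9.61 to 24.9 and 9.504 to 21.9 CPM. The NK, T cell and myeloid sums of A/B at TP2 thus overlapped those alone, and their part in the values of the 214 peaks was not tested.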

How the data were processed

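ATAC-seq libraries of 4 BCR/ABLp185 B-ALL lines (125 libraries in 42 groups) were analysed from the authors' files. The authors aligned reads to GRCm38 with STAR, marked duplicates with Picard 2.27.4, called broad peaks with MACS2 2.2.7.1 and, with featureCounts 2.0.1, counted reads over consensus peaks at a minimum overlap of 0.2. The deposited count table holds raw counts, and the deposited peak lists give a −log10 q-value for each peak. Read filters can remove peaks for all samples alike, and a read spanning peaks may be counted in each.

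The 214 peaks, gene lists and motifs were chosen with earlier results of these data known. Named peaks were the 12 with the largest mean A/B difference at TP2, the 6 with the highest A/B median at TP2, up to 10 called in all held-out fits in both tests (0 met this), up to 12 nearest to a list gene, runs, neighbours of the thresholds, the 5 with the largest TP2 minus TP1 and the 5 with the largest TP1 difference, and the 5 lowest and 5 highest in A/B against C/D alone. Other peaks were chosen after their values were seen. Some items that these rules name are not reported here. Positions and the nearest coding start come from GENCODE M21, distances being from the peak centre. Held-out experiments were fitted in edgeR 4.0.16 (R 4.3.3; TMM, quasi-likelihood F-test over 12 groups), and DESeq2 1.42.0 was an alternative. The edgeR test was also run on simulated counts with the same dispersion at every peak. These counts held no added differences between replicates, so they do not show how the calls behave where replicates differ. In 2 pairs of line C replicates the counts differed by less than sampling noise; each pair was averaged to count as 1 sample in the fits, leaving 123 samples. The study's methods call the co-culture replicates biological, the labels only number them, and p-values measure the spread between these libraries. Partner lines share a parental line.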

Additional observations from a re-analysis of the deposited data

Results flagged for a closer look

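The difference between the pairs of lines was itself tested in held-out experiments. The TP2 effect in A/B minus that in C/D was called in favour of A/B by edgeR for 33 chosen peaks in experiment 9.5, 4 in 9.6 and 28 in 9.7. These were 10.6%, 2.35% and 9.12% of the chosen peaks tested, against 0.482%, 0.0315% and 1.26% of all peaks. Over 58 sets of A/B or C/D combinations of line and experiment, 1 set had a combination far from the others. At the Klf6 peak on chr13:5986014-5986678, line B of experiment 9.6 had a TP2 difference of 1.15, while the lowest of the 6 A/B combinations was 0.67. By chance about 1 in 20 such groups would stand apart in this way.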

How the results depend on the processing

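The number of peaks meeting the rule was 54 with a pseudocount of 2 CPM and 411 with 0.1 CPM, 136 at a mean of 2 CPM or more, 9 with a gain of 1 or more and 50 with a limit of 0 in C and D, and 207 to 309 when 1 replicate number was left out. Of the 214, 37 were among the 54, 171 among the 411 and 113, 108 and 158 remained without replicate 1, 2 or 3. With TMM the number was 171, of which 164 were among the 214. In the held-out fits, leaving out 1 replicate gave 150 to 165, 10 to 18 and 30 to 79 calls of a gain in A/B at TP2 in 9.5, 9.6 and 9.7, 9 to 19, 1 to 2 and 14 to 27 calls of A/B minus C/D, and 129 to 152, 23 to 77 and 69 to 90 calls at TP1. For TP2 over TP1 it gave 4 to 6, 0 to 1 and 2 to 4 higher and 1 to 1, 0 to 70 and 0 to 9 lower. The share of all peaks called also moved in these fits, as with 0.36% to 2.99% for a gain in A/B at TP2 in 9.6. DESeq2 called 0 peaks higher at TP2 than TP1 in 9.6 and 3 lower in 9.7, against 0.886% and 0.722% of all peaks. The deviations of same-numbered replicates correlated at −0.30 to 0.42, with 2, 5 and 8 pairs over 0.1. Of the libraries, 19 of 35, 11 of 36 and 14 of 36 were closest to their own number, so the numbers were not treated as pairs. A replicate block gave 202, 39 and 82 calls in A/B at TP2, against 4.35%, 2.28% and 3.40% of all peaks. It gave 44, 3 and 27 of A/B minus C/D, against 0.754%, 0.0217% and 1.14%, and 1 of TP2 over TP1 in 9.6, against 2.00%. Counting only peaks that overlap a start site put 7.01% of the 214 at a start, against 17.9% of all peaks. In 200 bases the motif shares were 17.3% for ISRE, 13.6% for GAS, 11.2% for AP-1 and 10.3% for RUNX. All peaks were lower there too, at 5.97%, 5.57%, 6.08% and 5.36%. The causes of these changes were not tested.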
